A study of Mus musculus with 6 samples.

Results

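Class I antigen presentation and its inducible proteasome were followed through 10 genes, of 53458 genes summed from the files, in mouse leukemic blasts with and without a mutation of Asxl1, which encodes a chromatin regulator. The genes were taken by name: the heavy chains H2-K1 and H2-D1, the light chain B2m, the peptide transporter Tap1 and Tap2, its partner Tapbp, the transactivator Nlrc5, and the immunoproteasome subunits Psmb8, Psmb9 and Psmb10. RNA was sequenced from 3 libraries labelled Cebpa-/p30; Asxl1G643W/G643W (G643W) and 3 labelled Cebpa-/p30; Asxl1WT (WT). Both groups therefore carry the same Cebpa change, a lost allele of the myeloid transcription factor C/EBPα over an allele that makes its short p30 form, and both are given as strain C57/BL6; ages are not stated. The blasts came from the bone marrow of leukemic mice, which the design text describes as transplanted, and were sorted for CD45.2 with low Mac1 and low Gr1 and without Ter119, B220 or CD3. Nothing in the labels tells whether libraries of one genotype go back to different original leukemias, and the p-values refer to the scatter of these 6 libraries, which may in part be technical.

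Class I molecules show peptides from inside a cell to CD8 T cells and are read by natural killer cells. The proteasome cuts proteins into peptides, Tap1 and Tap2 pump these into the endoplasmic reticulum, and Tapbp (tapasin) holds the pump beside an empty heavy chain bound to B2m until a peptide fits. Interferon-gamma raises nearly the whole pathway and swaps the catalytic proteasome subunits Psmb5, Psmb6 and Psmb7 for Psmb8, Psmb9 and Psmb10, while Nlrc5 drives class I promoters and its relative Ciita drives class II promoters. In myeloid leukemia the pathway bears on how visible blasts are to T cells.

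None of the 10 genes met the test threshold between the genotypes (edgeR quasi-likelihood test, Benjamini-Hochberg adjusted p under 0.05), which 0.121% of all 20654 genes tested did. For H2-K1, H2-D1, B2m, Tap1 and Nlrc5 the means of G643W and WT blasts lay closer to each other than the SD of the WT libraries, among which library 1 was high and libraries 2 and 3 were low. Psmb10 and Psmb8 averaged lower in G643W blasts, at 54.5 ± 20.2 and 147 ± 24.8 CPM against 108 ± 33.4 and 219 ± 48.8 CPM in WT blasts (SD, n = 3 each), without passing the test, while Psmb9 and Tap2 lay within a narrow range in all 6 libraries. CPM here is a gene's share of a library's reads, scaled between libraries by TMM. Of 12 class II genes tested beside them, 4 fell in G643W blasts, as 0.0678% of all genes did, and none of the 4 passed without WT library 1.

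The upstream windows of the genes are shown because the pathway is best known for a shared promoter layout, in which RFX, CREB and NF-Y proteins bind an X and Y box module that Nlrc5 joins, next to sites for NF-kB and interferon-responsive factors. RefSeq (GRCm38.p6) gave a window for 8 of the 10 genes, not for Tap2 and Nlrc5, which are named only. Each sequence below ends at the base before the start site and is written 5′ to 3′ on the gene's strand. Capitals mark the motifs searched. They are the H2-K1 window (chr17:34000348-34000597, minus strand), the H2-D1 window (chr17:35262844-35263093, plus strand), the B2m window (chr2:122147437-122147686, plus strand), the 225 bases between the divergent start sites of Tap1 and Psmb9 (chr17:34187331-34187555, plus strand, reading toward Tap1), the Psmb8 window (chr17:34197945-34198194, plus strand) and the Psmb10 window (chr8:105938393-105938642, minus strand).
H2-K1: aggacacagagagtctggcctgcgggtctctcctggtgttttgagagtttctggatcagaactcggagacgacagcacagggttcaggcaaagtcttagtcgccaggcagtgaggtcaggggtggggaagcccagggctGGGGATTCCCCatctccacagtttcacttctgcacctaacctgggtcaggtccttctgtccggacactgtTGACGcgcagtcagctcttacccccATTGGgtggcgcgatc
H2-D1: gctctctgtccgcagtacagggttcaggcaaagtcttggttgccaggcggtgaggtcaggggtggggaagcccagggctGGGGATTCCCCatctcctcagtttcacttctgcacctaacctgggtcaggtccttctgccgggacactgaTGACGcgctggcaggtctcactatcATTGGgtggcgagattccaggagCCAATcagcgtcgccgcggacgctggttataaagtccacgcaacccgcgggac
B2m: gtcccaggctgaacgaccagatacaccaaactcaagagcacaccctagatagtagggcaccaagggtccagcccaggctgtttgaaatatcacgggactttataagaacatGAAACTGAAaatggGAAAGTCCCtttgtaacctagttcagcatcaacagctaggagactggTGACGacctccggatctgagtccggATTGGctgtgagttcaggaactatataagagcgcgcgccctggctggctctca
Tap1 and Psmb9: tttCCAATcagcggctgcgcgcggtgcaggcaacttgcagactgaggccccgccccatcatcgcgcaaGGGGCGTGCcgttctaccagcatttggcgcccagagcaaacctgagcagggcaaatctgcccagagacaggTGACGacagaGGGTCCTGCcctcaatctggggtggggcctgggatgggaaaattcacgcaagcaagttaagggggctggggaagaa
Psmb8: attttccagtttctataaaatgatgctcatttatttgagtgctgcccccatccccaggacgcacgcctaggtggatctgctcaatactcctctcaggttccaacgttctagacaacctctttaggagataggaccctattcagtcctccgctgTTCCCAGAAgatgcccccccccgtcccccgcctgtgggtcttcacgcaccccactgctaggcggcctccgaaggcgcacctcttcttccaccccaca
Psmb10: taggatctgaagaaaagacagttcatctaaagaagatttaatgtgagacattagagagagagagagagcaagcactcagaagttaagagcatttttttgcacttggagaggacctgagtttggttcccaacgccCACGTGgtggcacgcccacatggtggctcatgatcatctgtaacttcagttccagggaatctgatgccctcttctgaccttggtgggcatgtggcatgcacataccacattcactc

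The motifs were searched on both strands, and a match is a description of letters, not a binding site. CCAAT, the core of a Y box, stood in 33.8% of all 32851 windows of 250 bases in the table. TGACG, the core of a cAMP response element, stood in 17.8%, and GGGNNNTNC, a loose kappa B motif, in 41.2%. These 3 motifs stood together in 2.60% of windows, and in those of H2-K1, H2-D1, B2m, Tap1 and Psmb9, where Tap1 and Psmb9 share one stretch of DNA. GAAANNGAA, a core form of the interferon-stimulated response element, stood in 7.13% of windows. Of the 8 windows it stood in that of B2m alone, and it does not overlap the kappa B match there. Other spellings of this element were not searched, so the remaining windows are not shown to lack it. The H2-K1 and H2-D1 windows both hold tttcacttc downstream of their kappa B matches. On the other strand this stretch reads GAA before GAAA, an order that the letters searched cannot match. TTCNNNGAA, a gamma-activated site, stood in 7.02% of windows and was the only match in the Psmb8 window. CACGTG, an E box, stood in 6.02% and was the only match in the Psmb10 window. AGCAAC, an RFX motif, stood in 12.2% and in none of the 8 windows, and the Tapbp window held CCAAT alone. The start site of the Tapbp window lies 3579 bases from the gene start annotated in GENCODE M21. Those of Psmb8, Psmb9 and H2-D1 lie 474, 434 and 364 bases from it. Tap1 was searched in 225 bases, where the shares are of windows of 250 bases. The H2-K1 and H2-D1 windows shared an identical run of 47 bases that contains the GGGGATTCCCC stretch, in which the kappa B motif matches on both strands and the matches overlap.

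By position, 7 of the 10 genes lie within 1.35 Mb of chromosome 17, in the major histocompatibility complex, and Psmb9, Tap1, Psmb8 and Tap2 follow each other within 34.3 kb (GENCODE M21, GRCm38). B2m is on chromosome 2, and Nlrc5 and Psmb10 are on chromosome 8. Tap1 and Psmb9 are divergent neighbours whose annotated exons share 212 bases on opposite strands. The counting is not stated to use strand, and reads from that overlap cannot be told apart. Other genes on the opposite strand share annotated exon bases with Psmb8 (498 with Gm20496) and Tap2 (533 with Gm15821, 165 with Gm20496). Nlrc5 shares 78 with 9330175E14Rik, and the same limit holds for all of these.

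Library totals were 61167075, 101189225 and 76981758 estimated reads in G643W libraries 1 to 3, against 72664292, 69885969 and 76060388 in WT libraries 1 to 3. Asxl1 stood at 13.7, 20.2 and 15.5 TPM in the G643W libraries and at 6.95, 3.68 and 7.15 TPM in the WT libraries, a level that does not read the base change itself. The 10 blast genes, among them Mpo, Kit and the granule genes Elane and Ms4a3, summed to 13520, 3288 and 6516 CPM in the G643W libraries and 2969, 7568 and 10804 CPM in the WT libraries. WT library 1 had the lowest sum and was the lowest library for 4 of them, Ms4a3, Kit, Elane and Cebpe. G643W library 2 came next at 3288 CPM and was the lowest library for Cd34, Ctsg, Myb, Prtn3 and Mpo. Of 12 T cell markers, 9 were under 1 CPM in every library, among them Cd3e and Cd8a. Of 10 B cell markers, 3 were, Ms4a1 and Pax5 among them, while Ighm stood at 182 to 513 CPM, Igkc at 1.43 to 147 CPM and Cd79b at 20.6 to 37.5 CPM. The libraries of one genotype were not alike: the summed level of 12 neutrophil genes was 10178, 134015 and 73419 CPM in the G643W libraries and 2012, 10127 and 53904 CPM in the WT libraries. Less RNA per cell and fewer cells of a type cannot be told apart in bulk samples.

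The classical heavy chains carry the peptide groove. H2-K1 (ENSMUSG00000061232, chromosome 17, 33996017 to 34000347, minus strand) was at 419, 678 and 772 CPM in G643W libraries 1 to 3, against 1289, 333 and 435 CPM in WT libraries 1 to 3. WT library 1 was the highest and WT library 2 the lowest of the 6, so the WT values enclosed all G643W values. The means were 623 ± 183 CPM in G643W blasts and 686 ± 525 CPM in WT blasts, with a log2 fold change of -0.14 ± 0.54 (SE, edgeR quasi-likelihood, Benjamini-Hochberg adjusted p = 0.934). Without WT library 1 the log2 fold change was 0.69 (edgeR adjusted p = 0.615), the opposite sign.

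H2-D1 (ENSMUSG00000073411, chromosome 17, 35262730 to 35267499, plus strand) was at 582, 1270 and 1344 CPM in the G643W libraries, against 2181, 790.2 and 894 CPM in the WT libraries. Here G643W library 1 was the lowest and WT library 1 again the highest. On the log2 scale the fold change was -0.27 ± 0.51 (edgeR adjusted p = 0.844), and 0.33 without WT library 1 (edgeR adjusted p = 0.776). H2-K1 and H2-D1 belong to a family of similar genes: transcripts of 20 other genes aligned over at least 50% of the leading H2-K1 transcript and of 6 over that of H2-D1, none at 95% identity or more, with the closest at 91.4% (H2-Q4) for H2-K1 and 90.6% (H2-K1) for H2-D1. Reads common to such genes were divided by Salmon's model, and with the heavy chain genes summed as one feature the log2 fold change was -0.26.

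B2m (ENSMUSG00000060802, chromosome 2, 122147686 to 122153083, plus strand), the light chain shared by all class I molecules, had the highest TPM of the 10 genes in all 6 libraries. It stood at 1007, 1606 and 1665 CPM in the G643W libraries, against 2186, 864 and 864 CPM in the WT libraries. All 3 G643W libraries lay above WT libraries 2 and 3 and below WT library 1. Its log2 fold change was 0.13 ± 0.45 (edgeR adjusted p = 0.925), and 0.72 without WT library 1 (edgeR adjusted p = 0.608).

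**Figure D1:**
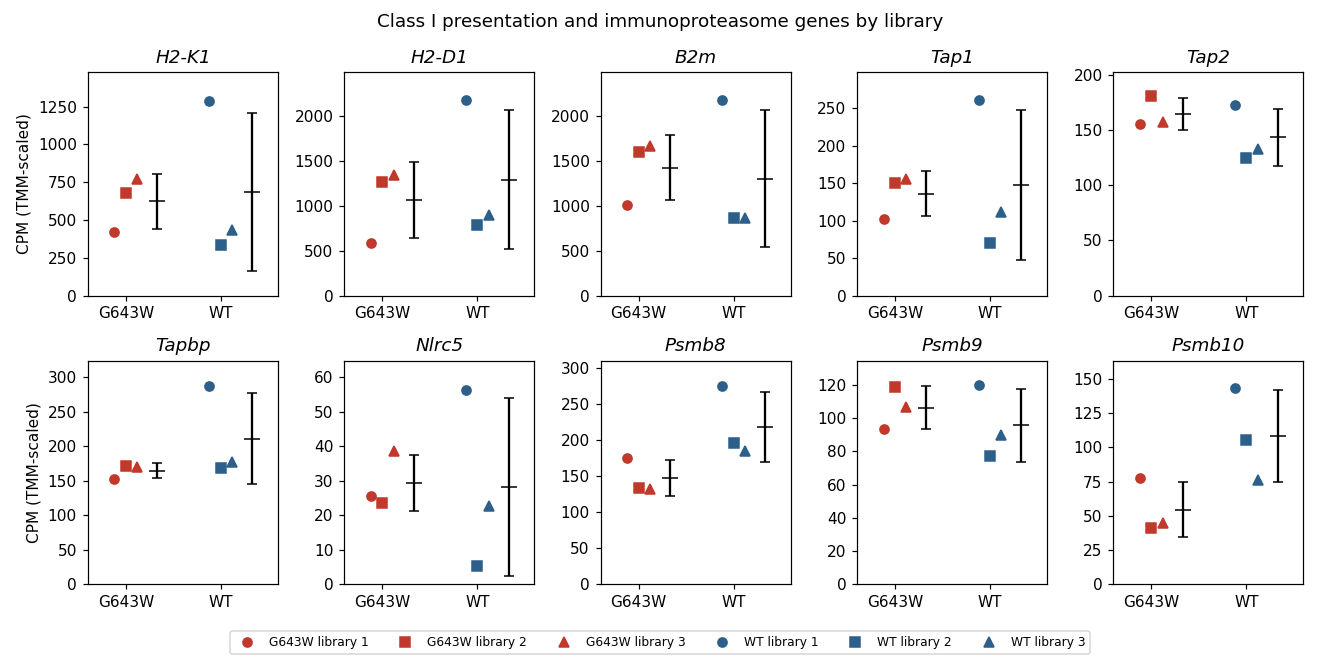
CPM of each of the 10 genes (vertical axes, TMM-scaled, starting at 0) in each library, G643W left and WT right, with the mean and SD of 3 libraries as a bar beside the points. WT library 1 is the highest point in 9 of the 10 panels, all but that of Tap2.

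Heavy chain and light chain were then set against each other within a library by their TPM, a level per transcript length, so that the ratio is free of the scaling between libraries. The ratio H2-D1/B2m was 0.280, 0.365 and 0.387 in the G643W libraries, against 0.459, 0.418 and 0.475 in the WT libraries. The groups did not overlap and G643W was lower, by a mean log2 difference of -0.40 (two-sided exact permutation p = 0.1, the smallest that 3 against 3 allows, 0.2 after Benjamini-Hochberg adjustment over both ratios). With single libraries left out the log2 difference ranged from -0.49 to -0.26. Groups without overlap fix its sign in advance, so the kept sign adds no support. The ratio H2-K1/B2m was 0.1825, 0.186 and 0.207 in the G643W libraries and 0.250, 0.159 and 0.211 in the WT libraries, so the groups overlapped (log2 difference -0.09, exact permutation p = 0.7, adjusted p = 0.7). Read from the leading transcript of each gene alone, that difference was -0.29.

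Of the transporter, Tap1 (ENSMUSG00000037321, chromosome 17, 34187553 to 34197225, plus strand) was at 102, 151 and 156 CPM in the G643W libraries, against 261, 70.3 and 111 CPM in the WT libraries. It had the same order of libraries as H2-K1, and a log2 fold change of -0.11 ± 0.48 (edgeR adjusted p = 0.940), or 0.58 without WT library 1 (edgeR adjusted p = 0.618). Tap2 (ENSMUSG00000024339, chromosome 17, 34203527 to 34216321, plus strand) was at 156, 181 and 157 CPM in the G643W libraries, against 173, 124 and 133 CPM in the WT libraries. It was the only one of the 10 genes whose highest library was not WT library 1, and its highest value was 1.46 times its lowest. The log2 fold change was 0.20 ± 0.21 (edgeR adjusted p = 0.719). It was 0.35 without WT library 1, 0.46 with counts scaled to length and 0.50 and 0.51 with limma on log2(TPM + 1) and log2(TPM + 0.1).

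In TPM, Tap2 stood at 101, 107 and 111 in the G643W libraries, against 88.6, 62.8 and 75.0 in the WT libraries, so that the groups overlapped in CPM but not in TPM. Over all genes tested, 9.61% had every G643W TPM above every WT TPM. Of the Tap2 reads, 75.3% were assigned to a transcript annotated as a retained intron. Tap1 and Tap2 form a pump of 1 copy each, and the TPM ratio Tap1/Tap2 was 0.302, 0.384 and 0.433 in the G643W libraries and 0.885, 0.288 and 0.413 in the WT libraries. WT library 1 thus stood apart in this ratio, and the other 5 libraries lay close together. With most Tap2 TPM on short transcripts, the ratio does not measure the copies of the subunits.

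Tapbp (ENSMUSG00000024308, chromosome 17, 33915899 to 33929292, plus strand) was at 152.5, 172 and 170.2 CPM in the G643W libraries, against 288, 168.5 and 177 CPM in the WT libraries. Apart from WT library 1, all libraries lay between 152.5 and 177 CPM. Its log2 fold change was -0.36 ± 0.26 (edgeR adjusted p = 0.621), and -0.07 without WT library 1 (edgeR adjusted p = 0.898). Its annotated exons share 149 bases with Zbtb22 on the same strand and 904 bases with the antisense gene Gm19412.

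Nlrc5 (ENSMUSG00000074151, chromosome 8, 94434356 to 94527272, plus strand), the class I transactivator, was at 25.7, 23.7 and 38.5 CPM in the G643W libraries, against 56.2, 5.45 and 22.8 CPM in the WT libraries. WT library 1 was again the highest and WT library 2 the lowest, with 10.3 times between them. That range was wider than in 94.3% of the 9214 genes tested with a mean of at least 10 CPM, whose median was 1.99 times. The log2 fold change between the genotypes was 0.06 ± 0.72 (edgeR adjusted p = 0.979), and 1.05 without WT library 1 (edgeR adjusted p = 0.627). Nlrc5 had the lowest TPM of the 10 genes in all 6 libraries. Its protein-coding transcripts held 26.5, 24.95 and 21.7% of its TPM in the G643W libraries, against 22.6, 100 and 18.7% in the WT libraries. In WT library 2 its leading transcript was at 0.0 TPM and the gene had 385 reads. The range of its CPM thus counts mostly transcripts not annotated as protein-coding, in a mix that differed in WT library 2.

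The 5 protein-coding genes whose log2 CPM was most like that of Nlrc5 over the 6 libraries, among 8753 compared, were the class I genes H2-Q7 (Pearson r 0.975), H2-Q6 (0.974) and H2-Q4 (0.966), the metal-responsive transcription factor Mtf1 (0.961) and Ankrd16 (0.960). H2-Q7 was at 20.5, 37.3 and 70.9 CPM in the G643W libraries, against 125, 3.81 and 31.9 CPM in the WT libraries. Of the other 9 genes of the pathway, Tap1 had an r of 0.891 with Nlrc5, H2-K1 0.825, Psmb9 0.821, B2m 0.746, Tap2 0.741, H2-D1 0.612, Tapbp 0.518, Psmb8 0.081 and Psmb10 -0.099. These are descriptions over 6 libraries that share their depth and scaling, and H2-Q6, H2-Q7 and H2-Q4 are similar genes among which reads were divided.

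The immunoproteasome subunits had log2 fold changes of both signs. Psmb10 (ENSMUSG00000031897, chromosome 8, 105935735 to 105938444, minus strand), which takes the place of Psmb7, was at 77.7, 41.0 and 44.7 CPM in the G643W libraries, against 143, 105 and 76.4 CPM in the WT libraries. G643W library 1 lay just above WT library 3, and the other values did not overlap. Its log2 fold change of -0.99 ± 0.34 was the largest of the 10 genes (edgeR unadjusted p = 0.0228, adjusted p = 0.493), and it ranged from -1.25 to -0.74 when single libraries were left out. Only 7.31 to 8.67% of its TPM fell on its protein-coding transcript, and the transcript with the most reads (26.6%) is annotated as a processed transcript.

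Psmb8 (ENSMUSG00000024338, chromosome 17, 34197721 to 34201454, plus strand), which takes the place of Psmb5, was at 176, 134 and 132.5 CPM in the G643W libraries, against 275, 196 and 185 CPM in the WT libraries. Every G643W library was below every WT library in CPM, as for 8.89% of all genes tested. In TPM the groups overlapped, at 108.5, 71.5 and 80.6 in the G643W libraries and 152, 99.8 and 107 in the WT libraries. The log2 fold change was -0.57 ± 0.25 (edgeR unadjusted p = 0.0535, adjusted p = 0.518).

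Psmb9 (ENSMUSG00000096727, chromosome 17, 34181987 to 34187764, minus strand), which takes the place of Psmb6, was at 93.2, 119 and 107 CPM in the G643W libraries, against 120.1, 77.5 and 89.9 CPM in the WT libraries. The values of the groups interleaved. A log2 fold change of 0.15 ± 0.23 (edgeR adjusted p = 0.810) resulted, of the opposite sign to those of Psmb8 and Psmb10. The TPM ratio Psmb8/Psmb9 was 1.16, 0.756 and 0.896 in the G643W libraries, against 1.41, 1.62 and 1.40 in the WT libraries, and Psmb10/Psmb9 was 0.98, 0.427 and 0.590 against 1.45, 1.70 and 1.08. Neither ratio had an overlap between the groups, G643W being lower. They are given without a test, since they were chosen after the values had been seen. The other ratios described in this way, Tap1/Tap2, Tap1/Psmb9 and Tapbp/Tap1, all had overlapping groups. Of all genes tested, 15.9% had no overlap in CPM, and such a share was not counted for ratios.

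Each inducible subunit was also set against the constitutive subunit it replaces, by TPM within a library. Psmb10/Psmb7 was 1.64, 0.830 and 1.11 in the G643W libraries, against 3.19, 2.28 and 1.51 in the WT libraries (log2 difference -0.95, two-sided exact permutation p = 0.2, adjusted p = 0.45 over the 3 ratios). Psmb8/Psmb5 was 1.45, 1.21 and 1.52 in the G643W libraries, against 2.81, 1.43 and 1.94 in the WT libraries (log2 difference -0.51, exact permutation p = 0.3, adjusted p = 0.45), a difference of -0.26 without WT library 1. Psmb9/Psmb6 was 1.23, 1.71 and 1.55 in the G643W libraries, against 1.84, 0.874 and 1.27 in the WT libraries (log2 difference 0.23, exact permutation p = 0.7, adjusted p = 0.7). The groups overlapped in all 3 ratios. The constitutive subunits themselves lay close, with log2 fold changes of -0.06 ± 0.23 for Psmb5, -0.10 ± 0.21 for Psmb6 and -0.03 ± 0.18 for Psmb7, none of which passed the test.

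**Figure D2:**
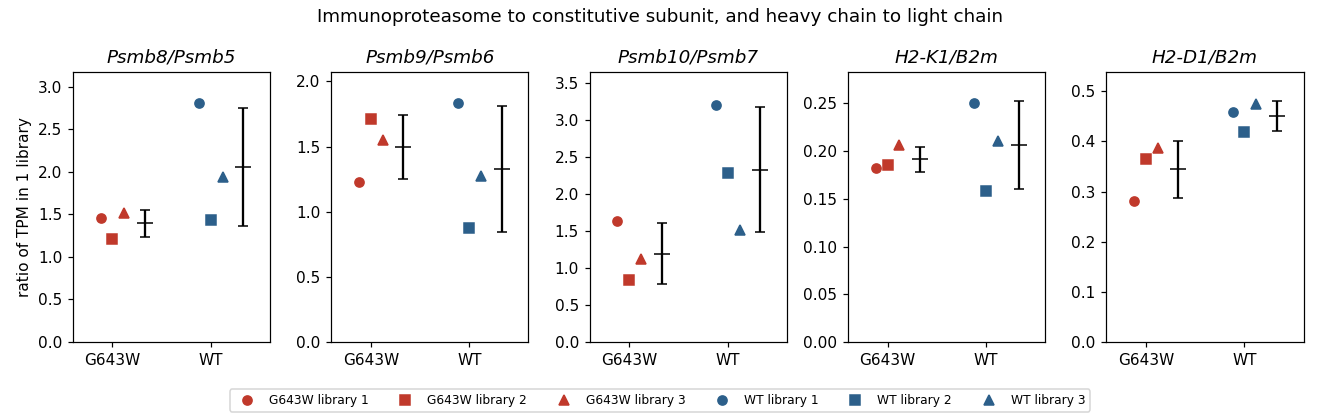
Ratios of TPM within each library (vertical axes, starting at 0), G643W left and WT right, with the mean and SD of 3 libraries as a bar beside the points. Of the 5 ratios only H2-D1/B2m separates the groups, with G643W at 0.280 to 0.387 below WT at 0.418 to 0.475.

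Over the 10 genes, 0 were called by edgeR at an adjusted p under 0.05, where 0.121% of all 20654 genes tested were, and 0 by DESeq2, where 2.07% were. At an unadjusted edgeR p under 0.05 there was 1 (Psmb10), where 9.66% of all genes were. The log2 fold change was positive for 4 and negative for 6, with a median of -0.13, against -0.01 over all genes tested. Without WT library 1 the median was 0.34 and 7 were positive, against a median of 0.02 over all genes. In 9 of the 10 genes WT library 1 was the highest library, as in 19.3% of all genes tested, and in 5 it was the highest while WT library 2 or 3 was the lowest, as in 7.62%. WT library 2 was the lowest in 5 of the 10, as in 19.9% of all genes. The sum of the 10 genes was 2791, 4376 and 4587 CPM in the G643W libraries, against 6972, 2735 and 2990 CPM in the WT libraries.

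The rest of the pathway was read from lists of genes by role. Of 16 nonclassical class I genes tested, none passed the test, the median log2 fold change was -0.45, and WT library 1 was the highest library in 11. Without that library the median was 0.07 and 8 of 16 were positive. The lowest p-values belonged to H2-M3, which presents formylated peptides, at 7.57, 7.21 and 8.89 CPM in the G643W libraries against 36.9, 13.1 and 11.1 CPM in the WT libraries (edgeR adjusted p = 0.493). Fcgrt, the neonatal Fc receptor, followed at 17.2, 4.92 and 9.69 CPM in the G643W libraries against 48.5, 23.7 and 16.4 CPM in the WT libraries (edgeR adjusted p = 0.501). In TPM Fcgrt was highest in G643W library 3, at 20.1, and the means were 9.15 in G643W and 9.22 in WT. Mr1, which presents vitamin B metabolites, was higher on average in G643W, at 4.69, 10.7 and 9.22 CPM against 3.60, 3.77 and 4.94 CPM in WT (edgeR adjusted p = 0.511).

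All 14 genes for peptide loading and trimming had negative log2 fold changes, and none passed the test. The median was -0.18, against -0.01 over all genes tested. G643W library 2 was the lowest library for all of them but Tapbpl and Blmh. In mean TPM Uggt1, Erap1, Hspa5, Pdia3, Tpp2, Lnpep and Blmh were higher in G643W and the others lower. The lowest p-values were those of Sec61b and Sec61a1, subunits of the translocation channel of the endoplasmic reticulum, at -0.59 ± 0.28 and -0.58 ± 0.29, and of the chaperone calnexin (Canx) at -0.44 ± 0.29. Among 14 genes of the 20S proteasome core, 13 were negative with a median of -0.17, WT library 1 was the highest library in 0, and none passed the test. Psma3, Psma4 and Psmb1 led them at -0.37 ± 0.20, -0.41 ± 0.24 and -0.36 ± 0.22. Among 18 genes of the 19S cap, led by Psmd8 (-0.47 ± 0.21), Psmd7 (-0.52 ± 0.25) and Psmc5 (-0.34 ± 0.21), 17 were negative with a median of -0.11 and none passed. In mean TPM both proteasome lists had mixed signs, with Psma1, Psma6, Psmc6 and Psmd14 among the genes higher in G643W. The share of negative fold changes over all genes was not counted.

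Of 10 proteasome regulator and assembly genes, none passed the test and the median was -0.20. The assembly chaperone Psmg4 was at 17.3, 6.71 and 10.8 CPM in the G643W libraries against 22.8, 31.3 and 19.6 CPM in the WT libraries (log2 fold change -1.08 ± 0.39, edgeR adjusted p = 0.496). Psmg3, its partner, had -0.46 ± 0.31, and Psmf1, a proteasome inhibitor, 0.48 ± 0.29. Psme1 and Psme2, the interferon-inducible activator that opens the core, had -0.22 ± 0.23 and -0.11 ± 0.22.

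Of 21 genes for the transcription of class I genes, edgeR called none and DESeq2 called 2, both lower in G643W, where it called 2.07% of all genes. Ciita, the class II counterpart of Nlrc5, was at 6.725, 2.58 and 4.15 CPM in the G643W libraries against 23.3, 21.1 and 26.1 CPM in the WT libraries (log2 fold change -2.39 ± 0.40, edgeR adjusted p = 0.1765, DESeq2 adjusted p = 2.66e-06). Irf8, an interferon regulatory factor of monocytes and dendritic cells, was at 108.5, 24.6 and 48.5 CPM in the G643W libraries against 215, 230 and 192 CPM in the WT libraries (-1.81 ± 0.51, edgeR adjusted p = 0.454, DESeq2 adjusted p = 0.0433). Usf1, an E box factor, had -0.69 ± 0.24 (edgeR adjusted p = 0.493). In CPM all 3 genes had every G643W library below every WT library, Usf1 not in TPM. They were the only 3 of the 21 to do so, where 8.89% of all genes tested did. Rfxank alone had every G643W library above every WT library in CPM, where 7.05% of all genes did. The WT libraries spanned 21.1 to 26.1 CPM for Ciita where they spanned 5.45 to 56.2 CPM for Nlrc5.

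The 19 genes of the interferon-gamma response followed WT library 1, as the heavy chains did: it was the highest library in 17 of 19, and WT library 2 was the lowest in 9. Their sum was 530.0, 591 and 642.6 CPM in the G643W libraries, against 1065, 448 and 446 CPM in the WT libraries. None passed the test, and the median log2 fold change was -0.57 with all libraries and 0.61 without WT library 1, with 15 of 19 positive. The guanylate-binding protein gene Gbp7 was above WT in every G643W library, at 44.0, 52.4 and 58.2 CPM against 39.6, 18.9 and 21.5 CPM (0.95 ± 0.32, edgeR adjusted p = 0.493). Gbp7 was the only 1 of the 19 genes to be so, where 7.05% of all genes tested were. The GTPase gene Ifi47 had -1.16 ± 0.42 and the adhesion gene Icam1 -0.71 ± 0.28 (edgeR adjusted p = 0.493 and 0.503).

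The chemokine gene Cxcl10 had the same split, at 2.54, 4.79 and 6.63 CPM in the G643W libraries and 72.5, 1.22 and 1.93 CPM in the WT libraries. Of 10 interferon receptor and signalling genes none passed, with a median of -0.36 and 1 positive, or -0.17 and 4 positive without WT library 1. The receptor chains Ifnar2 (-0.66 ± 0.24, edgeR adjusted p = 0.496) and Ifngr2 (-0.62 ± 0.23, edgeR adjusted p = 0.498) were below WT in every G643W library. With Ifnar1 that made 3 of the 10 genes, where 8.89% of all genes tested were so. The feedback inhibitor Socs3 was at 7.54, 7.16 and 16.9 CPM in the G643W libraries and 324, 7.05 and 4.13 CPM in the WT libraries.

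**Figure D3:**
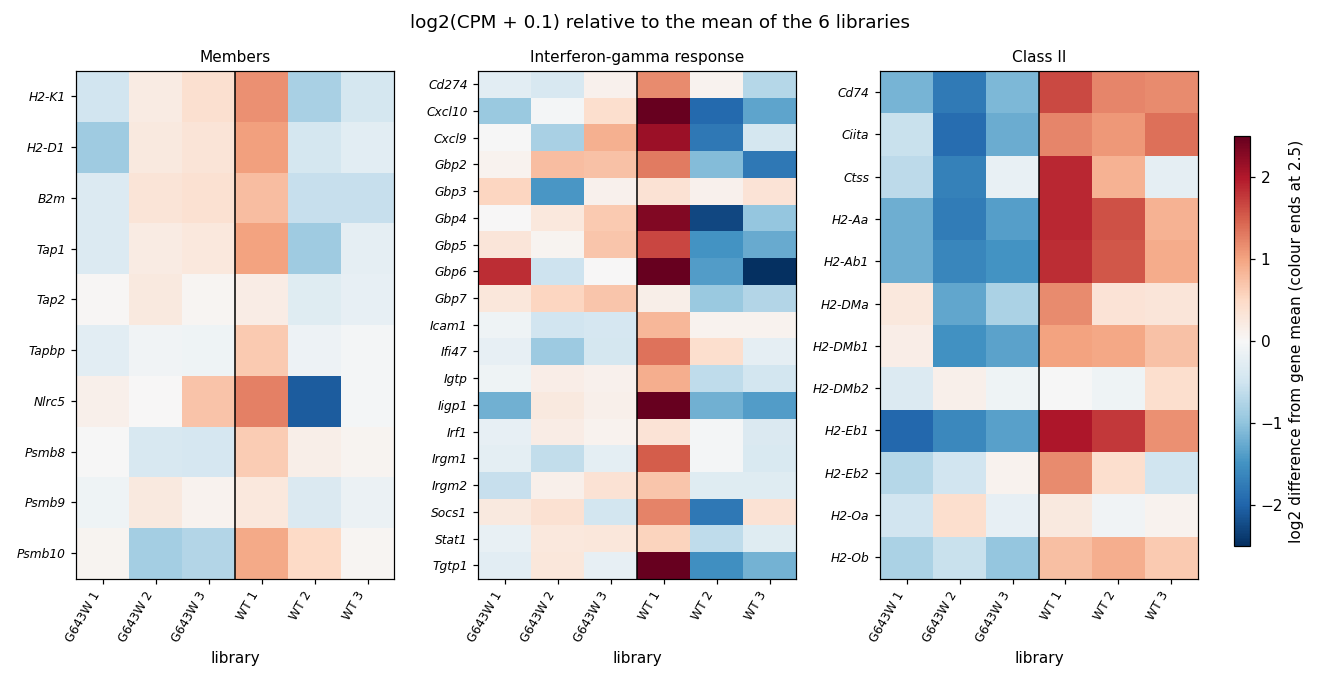
Each row is a gene and each column a library, G643W left and WT right; colour is log2(CPM + 0.1) minus the gene's mean over the 6 libraries and ends at 2.5. WT library 1 is the highest library for 9 of the 10 class I pathway genes and 17 of 19 interferon-gamma response genes, while 8 of 12 class II genes are lower in every G643W library, as 8.89% of all genes tested are.

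Class II genes were read for comparison. Of 12 tested, 4 fell in G643W and 0 rose, against 0.0678% and 0.0533% of all genes, and 8 were lower in every G643W library than in any WT library, as 8.89% of all genes were. H2-Eb1, a beta chain, was at 15.8, 20.2 and 23.9 CPM in the G643W libraries against 251, 210.2 and 136 CPM in the WT libraries (-3.32 ± 0.31 on the log2 scale, edgeR adjusted p = 0.0257). H2-Ab1 (edgeR adjusted p = 0.0346), H2-Aa (0.0436) and the invariant chain Cd74 (0.0428) were the other 3. The 4 log2 fold changes stayed between -3.12 and -2.53 without WT library 1, where the adjusted p-values were 0.0919 to 0.137 and none passed, and none passed without G643W library 1, 2 or 3 or WT library 2, or in a test of protein-coding genes alone (edgeR adjusted p = 0.0614 to 0.0771). Under no scaling, counts scaled to length and limma on log2(TPM + 1) 1 of the 4 passed, and under upper quartile scaling 2. With the replicate block 0 passed, and without WT library 3 there were 3. All 4 passed without a filter, with DESeq2 size factors in edgeR and with limma on log2(TPM + 0.1). DESeq2 called all 4 (adjusted p = 1.35e-15 to 1.71e-12), where it called 2.07% of all genes. Whether class I and class II genes differ in their fold change was not tested.

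**Figure D4:**
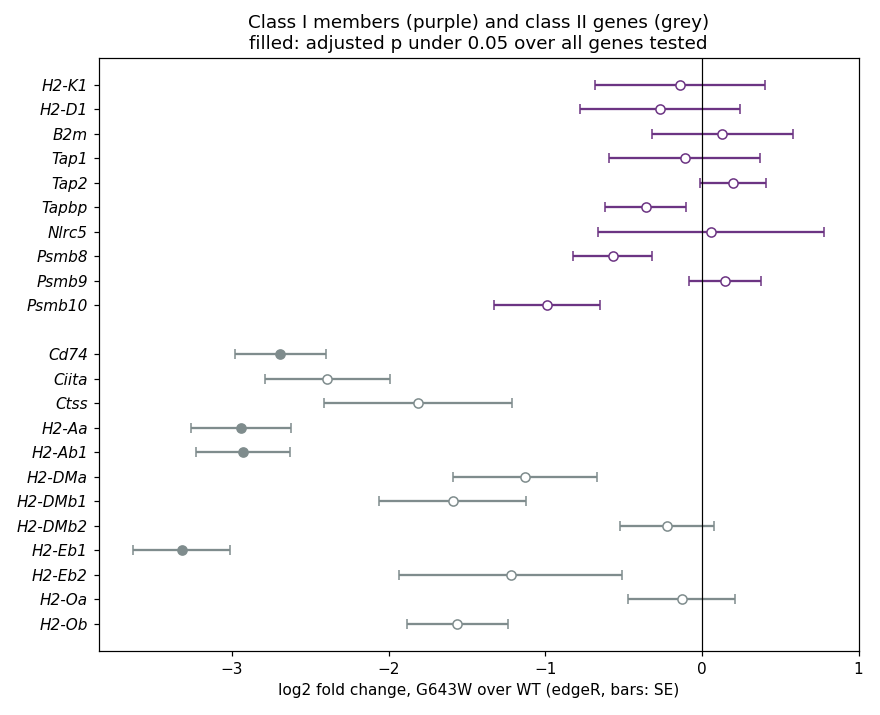
Log2 fold change of G643W over WT from edgeR (horizontal axis, bars are SE) for the 10 class I pathway genes (purple) and 12 class II genes (grey); filled points passed an adjusted p of 0.05. The class I genes lie between -0.99 and 0.20 and are all open, and the 4 filled points are H2-Eb1, H2-Ab1, H2-Aa and Cd74.

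Markers of other cells were read beside these levels. The 10 macrophage markers summed to 466, 276 and 480 CPM in the G643W libraries and to 777, 556 and 400 CPM in the WT libraries, with WT library 1 the highest of the 6 and the highest library for 5 of the 10. The complement gene C1qa among them was at 1.39, 0.719 and 7.14 CPM in the G643W libraries and 68.4, 10.7 and 3.63 CPM in the WT libraries, while the mannose receptor Mrc1 was at 18.6, 19.8 and 42.2 CPM in the G643W libraries and 3.08, 20.2 and 64.3 CPM in the WT libraries. Vcam1 was highest in G643W library 1 and Adgre1 in G643W library 3. The 12 dendritic cell markers summed to 88.6, 48.1 and 75.5 CPM in the G643W libraries and to 338, 243 and 126 CPM in the WT libraries. The sum was lower in every G643W library, and Cd209a alone gave 99.5 CPM of it in WT library 2. Of the 12 markers, 6 were lower in every G643W library, where 8.89% of all genes tested were, and 2 had positive log2 fold changes. The T cell markers summed to 13.8, 19.2 and 23.01 CPM in the G643W libraries and 15.3, 11.6 and 21.3 CPM in the WT libraries. That sum was mostly Cd4 and Cd28, and WT library 1 was the highest library for 5 of the 10 T cell genes tested (Lck, Cd8a, Trac, Trbc1 and Trbc2), each under 1 CPM there. The 10 natural killer cell markers summed to 78.3, 42.9 and 74.0 CPM in the G643W libraries and 48.3, 99.9 and 144 CPM in the WT libraries, with 6 of the 10 under 1 CPM in all 6 libraries, Ncr1 and Prf1 among them. Nkg7 made up most of that sum in every library but WT library 1. Klrk1 was at 7.18, 4.92 and 6.09 CPM in the G643W libraries and 34.4, 34.6 and 10.9 CPM in the WT libraries (edgeR adjusted p = 0.365, DESeq2 adjusted p = 0.0038), and Klrd1 was also lower in every G643W library (edgeR adjusted p = 0.487, DESeq2 adjusted p = 0.0453). These were 2 of the 4 natural killer cell genes tested, where 8.89% of all genes tested were lower in every G643W library. The 10 B cell markers summed to 220.5, 331 and 576 CPM in the G643W libraries and 659, 422 and 402 CPM in the WT libraries. The part of these cells, and of the low blast gene sum in WT library 1, in the class I levels was not tested.

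**Figure D5:**
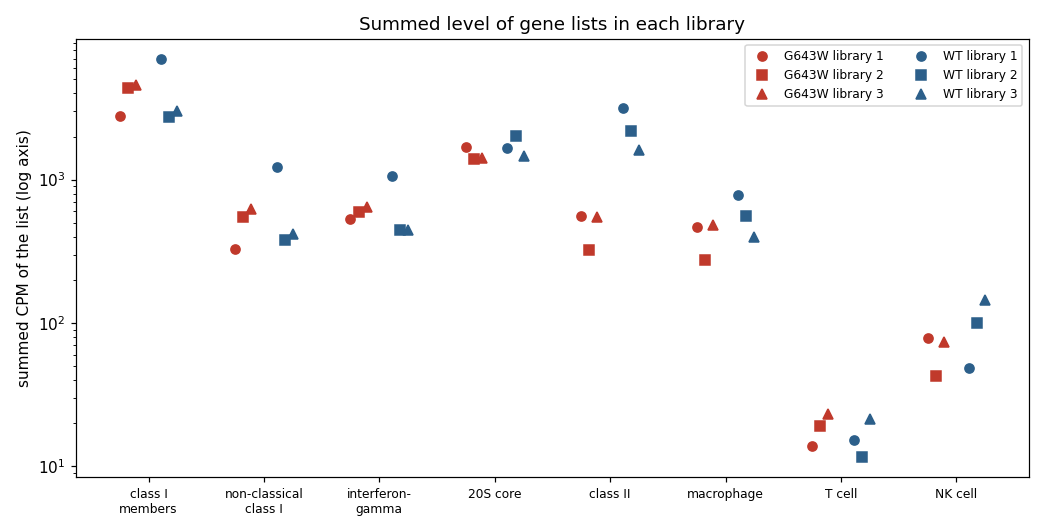
Summed CPM of each gene list in each library (log axis), G643W left and WT right within a list. The class I, nonclassical class I and interferon-gamma lists share a high WT library 1, the 20S core varies little, and class II separates the genotypes with G643W at 322 to 556 CPM below WT at 1615 to 3173 CPM.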

How the data were processed

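Leukemic blasts were profiled by RNA sequencing in 6 libraries, 3 per genotype, made with a TruSeq V2 kit per the labels' protocols. The authors deposited tables per transcript from Salmon 0.12.0, which with bcl2fastq and the builds mm10 and GRCm38.p6 is named in the submitters' processing notes. Per the file headers, the deposited columns hold estimated counts, which can be fractions of reads, and TPM. The sources used here do not give the Salmon options, index or strand setting.

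Of 136288 transcripts, 136176 were found in GENCODE M21 (GRCm38) and added up to 53458 genes; the remaining 112, with up to 0.0365% of the reads in a library, were left out. Gene sums of estimated counts were rounded and kept by filterByExpr at a minimum count of 10. TMM factors and edgeR 4.0.16 in R 4.3.3 were used for a two-sided quasi-likelihood test (glmQLFit, glmQLFTest) on genotype alone. P-values were adjusted after Benjamini-Hochberg over 20654 genes at a threshold of 0.05. An SE was computed from the log2 fold change and F, as the size of the first over the root of the second, and the biological coefficient of variation was 52.8%. Library totals were 61167075 to 101189225 reads. A check for duplicate libraries found none: every pair differed by more than counting noise. Ratios of TPM were compared by a two-sided exact permutation test. The procedure was tested on simulated counts.

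The genes and lists were chosen with earlier results of these data known, and the promoter motifs after the values had been seen. All 10 genes are named, with called genes and up to 3 lowest p-values of each pathway list, and the 5 protein-coding genes most like Nlrc5 (mean of at least 10 CPM, log2 CPM with a prior count of 2). Similar transcripts were sought with BLAST+ 2.17.0. The alternatives tried were a changed scaling or filter, counts scaled to length, a replicate block, DESeq2 1.42.0, limma 3.58.1 on log2(TPM + 1) and log2(TPM + 0.1), and each library left out.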

Additional observations from a re-analysis of the deposited data

How the results depend on the processing

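None of the 10 genes passed the threshold under any alternative run, and Tap2, Tapbp, Psmb8, Psmb9 and Psmb10 kept the sign of their log2 fold change under all of them. H2-K1 (main value -0.14) reversed with the replicate block (0.12) and with limma on log2(TPM + 1) and log2(TPM + 0.1) (0.23 each), and ranged from -0.41 to 0.69 with single libraries left out. Tap1 (-0.11) reversed with the replicate block (0.10) and limma (0.14 and 0.15), and ranged from -0.40 to 0.58. H2-D1 ranged from -0.47 to 0.33, B2m from -0.04 to 0.72 and Nlrc5 from -0.39 to 1.05 with single libraries left out, and Nlrc5 was at -0.00 with no scaling. The log2 ratio Psmb9/Psmb6 ranged from -0.04 to 0.49 and H2-K1/B2m from -0.26 to 0.07 with single libraries left out; H2-K1/B2m was -0.29 from the leading transcripts alone, and Psmb8/Psmb5 ranged from -0.75 to -0.26. Over all genes, 25 were called: 15 with upper quartile scaling, 16 with none, 104 without a filter, 2 among protein-coding genes alone, 10 with length-scaled counts, 427 with DESeq2 and 43 with limma on log2(TPM + 0.1). With single libraries left out the count was 0 to 16, with 0 by edgeR without WT library 2 (1277 at an unadjusted p under 0.05). With the replicate block edgeR called 0 (1772 at an unadjusted p under 0.05), and the 4 class II genes had adjusted p-values of 0.177 to 0.194. Deviations of same-numbered libraries from their group means correlated at 0.11, -0.16 and 0.18. Differently numbered libraries of the 2 genotypes correlated at -0.28 to 0.23. With 3 libraries per group this check shows no pairing by number but cannot exclude one. The cause of these shifts was not tested. No alternative varied the depth.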
